A study of Homo sapiens with 42 samples.

Results

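NFKBIA and NFKB1, an inhibitor and a subunit of the transcription factor NF-kappaB, were followed over time in Hep3B cells, an established human hepatoma line. All probes whose annotation names only 1 of these genes were taken, each by itself: 1 probe for NFKBIA (probe 7474) and 3 for NFKB1 (probes 9693, 10178 and 634), 4 of the 13824 probes on the array. Total RNA came from 42 cultures, 21 in CM, which the labels describe as rich in pro-inflammatory cytokines, and 21 in the control medium NCM. Each medium was sampled at 7 times (T0, after 15 min and 30 min, and after 1 h, 3 h, 6 h and 16 h), with 3 independent experiments per time. A CM culture and an NCM culture of an experiment and time came from cells trypsinized together, so each time has 3 pairs. The labels name neither the cytokines in CM nor their doses, nor how CM was made. The cells are 1 cell line, and the labels name no genotype or other agent. Whether an experiment number marks 1 batch of cells across the times is not stated. The question was how the level of each mRNA in CM cultures compared with that in NCM cultures over time.

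NF-kappaB is a dimer of subunits of the Rel family that sits in the cytoplasm while an inhibitor holds it. NFKBIA encodes IkappaB-alpha, the inhibitor that is phosphorylated and degraded when cytokine receptors such as those of interleukin-1 and tumor necrosis factor signal, and NF-kappaB then induces NFKBIA, so the inhibitor is made again. NFKB1 encodes p105, which itself holds other subunits and is processed to the DNA-binding subunit p50, and its gene is also a known NF-kappaB target. In hepatocytes and hepatoma cells the pathway takes part in the acute phase response.

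Since both genes are known targets of the factor they control, the 250 bases before the start of each gene are shown from RefSeq on GRCh38.p14. The NFKBIA bases lie at chr14:35404750-35404999 on the minus strand, upstream of the gene at chr14:35401513-35404749. The NFKB1 bases lie at chr4:102501109-102501358 on the plus strand, upstream of the gene at chr4:102501359-102617302. Both are written 5′ to 3′ in the direction of the gene, with the match to the kappaB consensus in capitals.
NFKBIA: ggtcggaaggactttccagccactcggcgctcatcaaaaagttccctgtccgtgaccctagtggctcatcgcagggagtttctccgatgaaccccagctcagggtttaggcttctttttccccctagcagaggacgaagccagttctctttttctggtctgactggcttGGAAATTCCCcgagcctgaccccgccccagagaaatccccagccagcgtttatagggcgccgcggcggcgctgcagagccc
NFKB1: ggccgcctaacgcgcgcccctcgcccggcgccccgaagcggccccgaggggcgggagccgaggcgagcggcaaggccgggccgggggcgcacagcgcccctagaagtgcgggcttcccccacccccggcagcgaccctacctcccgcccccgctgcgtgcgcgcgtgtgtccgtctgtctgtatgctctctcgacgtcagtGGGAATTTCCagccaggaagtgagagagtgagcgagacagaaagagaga
The match has the letters GGGAATTTCC in both promoters. In NFKBIA it reads on the strand opposite to the gene, at positions -81 to -72 before the start, and in NFKB1 on the strand of the gene, at positions -49 to -40. Searched on both strands, the kappaB consensus occurred in at least 1 promoter of 6.28% of 27305 genes, and GGGAATTTCC in that of 0.176% of them (48 genes). RefSeq gives NFKB1 a second start (250 bases at chr4:102501684-102501933), and these bases held no match to the consensus. TATAAA stood on the strand opposite to the gene in the NFKBIA bases at -33 to -28, and was found in neither stretch of NFKB1. These matches describe letters, and binding was not measured.

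The deposited values are linear intensities, 1 per probe and array. They were quantile normalized and set to log2, so all levels below are log2 normalized intensities, and a change is the CM level minus the NCM level of a pair. The mean intensity of an array was 0.999 to 1.00 and the median 0.354 to 0.807. The mean correlation of an array with the others was 0.743 to 0.874. The 2 lowest arrays were NCM at T0 in experiment 2 (0.743) and NCM at 1 h in experiment 1 (0.751). Precision is limited by the number of arrays. Of the hepatocyte and hepatoma markers 8 of 9 were measured, and all 8 had mean levels above the median of all probes. Their summed intensity was 14.2 to 26.2 in CM and 14.4 to 24.97 in NCM. That of 5 of 9 macrophage markers was 1.44 to 3.91 in CM and 1.63 to 3.97 in NCM. It was 0.175 to 1.66 in CM and 0.302 to 1.28 in NCM for 2 of 6 lymphocyte markers, 0.521 to 2.38 in CM and 0.593 to 1.87 in NCM for 3 of 4 endothelial markers, and 1.35 to 3.03 in CM and 1.40 to 3.39 in NCM for 3 of 5 fibroblast markers. Mean levels below the median of all probes were found for 3 of 5 macrophage, 2 of 2 lymphocyte, 3 of 3 endothelial and 1 of 3 fibroblast markers. The macrophage markers CD14 and CSF1R and the fibroblast markers COL1A1 and DCN were above it, DCN at the 80.3 percentile. None of the markers of these 5 cell types passed limma's test at any time. Their part in the results below was not tested. In these bulk samples fewer cells of a type and less RNA per cell cannot be told apart.

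In CM cultures NFKBIA stood 2.13-fold above NCM at 30 min, 2.34-fold at 1 h and 1.62-fold at 3 h, in 3 of 3 pairs each time. The 30 min value leans on experiment 3, without whose pair the log2 change was 0.66 in place of 1.09. NFKB1, by its brightest probe 9693, stood 0.86-fold against NCM at 30 min, 1.60-fold above it at 1 h and 2.34-fold above it at 3 h. At 1 h its log2 change of 0.68 was 0.39 without experiment 1 and 0.23 with the 3 NFKB1 probes averaged, and at 3 h 1.22 became 0.52 with them averaged. Both were near NCM at 16 h. None of these changes passed limma's test after Benjamini-Hochberg adjustment over the 13824 probes (threshold 0.05), in which 0% of probes passed at each time up to 6 h and 0.00723% at 16 h. An unadjusted p under 0.05 was found for 485 probes at 30 min, 605 at 1 h and 450 at 3 h. The 2 other NFKB1 probes showed no such course.

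At T0, NFKBIA levels were -1.72, -1.48 and -1.51 in CM cultures of experiments 1, 2 and 3, against -1.28, -1.44 and -1.18 in their NCM pairs. All 3 CM arrays lay below all 3 NCM arrays, which was the case for 1.47% of probes. The change was -0.27 (SE 0.27, n = 3 pairs, limma adjusted p = 1.00).

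At 15 min, the levels of NFKBIA were -0.43, -1.34 and -1.39 in CM, against -0.94, -1.69 and -1.24 in NCM. The groups overlapped, 2 of 3 pairs were higher in CM, and the change was 0.24 (SE 0.27). At 30 min the levels were -0.46, -1.14 and -1.51 in CM, against -1.63, -1.29 and -3.46 in NCM. The groups overlapped, although each CM array was above its own NCM pair, as for 8.8% of probes. The change was 1.09 (SE 0.27, 95% interval 0.53 to 1.64, n = 3 pairs, limma adjusted p = 0.997). Its unadjusted p of 0.000557 was the smallest of all probes at 30 min in limma, where 4 probes (0.0289%) had a change above 1. The pair changes were uneven, at 1.16, 0.15 and 1.95 (SD 0.90). The SE, interval and p above pool the spread over the pairs of all times and do not measure that of these 3 pairs. The NCM array of experiment 3 gave the lowest NFKBIA value of the series, at the 1.27 percentile of its own array. Without that pair, a choice made after seeing the data, the change was 0.66, and with a floor at the 10th percentile it was 0.63.

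At 1 h, NFKBIA levels were 0.57, -0.04 and -0.55 in CM cultures, against -1.02, -1.54 and -1.14 in NCM cultures. The deposited intensities behind them were 1.27, 0.989 and 0.691 in CM, against 0.652, 0.281 and 0.441 in NCM. Every CM array was above every NCM array, as for 2.4% of probes, and 15.6% of probes were higher in CM in 3 of 3 pairs. The change was 1.23 (SE 0.27, 95% interval 0.67 to 1.78, n = 3 pairs, limma adjusted p = 0.569), with 1.59, 1.49 and 0.59 in the pairs. Its unadjusted p of 0.000165 ranked 4 among all probes, and 0.145% of probes had a change above 1.

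At 3 h, the inhibitor's levels were 0.01, -0.26 and -0.88 in CM, against -0.76, -1.31 and -1.15 in NCM. Each pair was higher in CM, as for 14.6% of probes, while the CM array of experiment 3 lay below the NCM array of experiment 1. The change was 0.69 (SE 0.27, 95% interval 0.14 to 1.25, n = 3 pairs, limma adjusted p = 1.00). NFKBIA was among 44 probes (0.318%) higher in CM in 3 of 3 pairs at 30 min, 1 h and 3 h together. These are the times at which NFKBIA itself was higher in each pair, so its place among the 44 is not a test.

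At 6 h, NFKBIA levels were -1.63, -1.49 and -0.88 in CM, against -1.72, -1.42 and -1.17 in NCM, and the change was 0.11 (SE 0.27). At 16 h they were -1.18, -1.83 and -0.96 in CM, against -1.15, -1.58 and -1.28 in NCM, and the change was 0.01 (SE 0.27). At both times the groups overlapped and the pairs went in both directions.

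**Figure D1:**
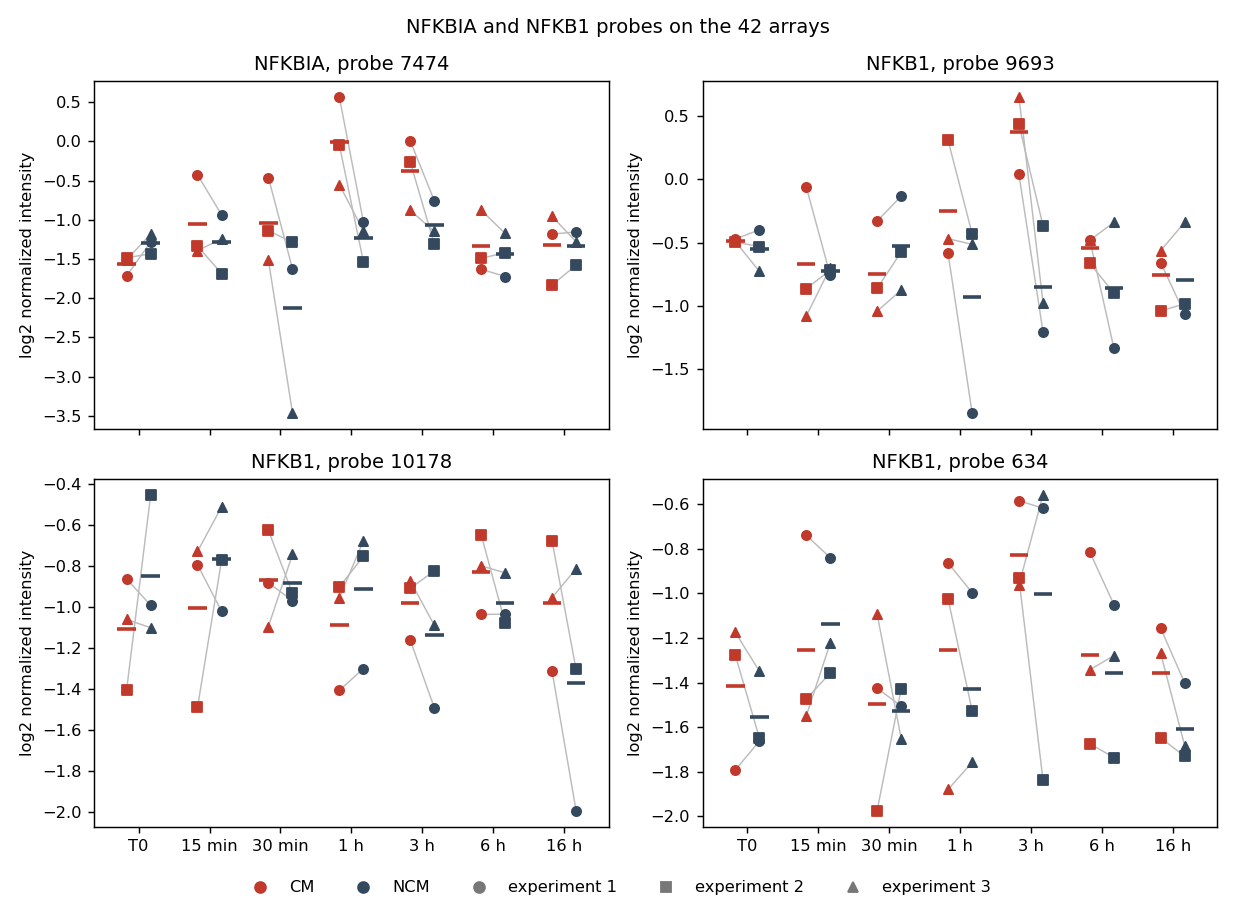
Log2 normalized intensity (y axis) of the NFKBIA probe and the 3 NFKB1 probes over the 7 times (x axis), with 1 point per array, CM left of NCM at each time. All CM points lie above all NCM points for NFKBIA at 1 h and for NFKB1 probe 9693 at 3 h, while the other NFKB1 probes overlap at every time.

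In the order of size, the NFKBIA changes ran 1 h, 30 min, 3 h, 15 min, 6 h, 16 h and T0. The change at 1 h minus that at 30 min was 0.14 (SE 0.38, limma unadjusted p = 0.717), so these neighbours were not told apart. The change at 30 min minus that at 15 min was 0.85 (SE 0.38, unadjusted p = 0.0349), and it was 0.23 without experiment 3. The steps after 1 h were -0.53 to 3 h (unadjusted p = 0.173) and -0.59 to 6 h (unadjusted p = 0.133), both with SE 0.38. No step passed after adjustment. Averaged over 15 min, 30 min and 1 h the NFKBIA change was 0.85 (SE 0.15, limma adjusted p = 0.267), higher in CM in 8 of 9 pairs, as in 3.47% of probes with at least 8. Its unadjusted p of 1.93e-05 was the smallest of all probes. Averaged over 3 h, 6 h and 16 h it was 0.27 (SE 0.15, limma adjusted p = 0.827), and 0.0434% of probes passed in that mean.

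The change of NFKB1 probe 9693 lay between -0.22 and 0.07 through 30 min. At T0 its levels were -0.47, -0.49 and -0.49 in CM, against -0.40, -0.53 and -0.73 in NCM, with a change of 0.07 (SE 0.25). At 15 min they were -0.06, -0.86 and -1.08 in CM, against -0.76, -0.72 and -0.70 in NCM, with a change of 0.06 (SE 0.25). The groups overlapped at both times. At 30 min, when NFKBIA was higher in CM in each pair, NFKB1 levels were -0.33, -0.86 and -1.04 in CM, against -0.13, -0.57 and -0.87 in NCM. Each pair was lower in CM, as for 11.7% of probes, with overlapping groups and a change of -0.22 (SE 0.25, limma adjusted p = 0.997).

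At 1 h, probe 9693 had -0.58, 0.31 and -0.47 in CM, against -1.85, -0.43 and -0.51 in NCM. The groups overlapped, and the pair changes of 1.26, 0.74 and 0.04 differed widely. The change was 0.68 (SE 0.25, 95% interval 0.17 to 1.20, n = 3 pairs, limma adjusted p = 0.977), and 0.39 without experiment 1, whose NCM array at 1 h is the second lowest in correlation with the others.

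At 3 h, NFKB1 levels by probe 9693 were 0.04, 0.43 and 0.65 in CM cultures, against -1.21, -0.37 and -0.98 in NCM cultures. The deposited intensities were 0.994, 1.42 and 1.73 in CM, against 0.410, 0.685 and 0.445 in NCM. All CM arrays lay above all NCM arrays, as for 2.58% of probes. The change was 1.22 (SE 0.25, 95% interval 0.71 to 1.74, n = 3 pairs, limma adjusted p = 0.462), with 1.25, 0.80 and 1.63 in the pairs. Its unadjusted p of 7.40e-05 ranked 2 among all probes, and 0.13% of probes had a change above 1.

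At 6 h, the probe had -0.48, -0.66 and -0.48 in CM, against -1.34, -0.90 and -0.34 in NCM, with a change of 0.32 (SE 0.25) and 0.05 without experiment 1. At 16 h it had -0.66, -1.04 and -0.56 in CM, against -1.07, -0.98 and -0.34 in NCM, with a change of 0.04 (SE 0.25). The groups overlapped at both times. The largest change, at 3 h, and the next, at 1 h, differed by 0.54 (SE 0.35, limma unadjusted p = 0.136), and by 0.02 without experiment 3. The change at 6 h minus that at 3 h was -0.91 (SE 0.35, unadjusted p = 0.0170), and -0.48 without experiment 3. That at 1 h minus 30 min was 0.90 (SE 0.35, unadjusted p = 0.0180). None passed after adjustment. Over 3 h, 6 h and 16 h the change averaged 0.53 (SE 0.14, limma adjusted p = 0.554), higher in CM in 6 of 9 pairs, and over 15 min, 30 min and 1 h it averaged 0.17 (SE 0.14), higher in 4 of 9 pairs.

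The 3 NFKB1 probes did not show the same course. At 3 h, where probe 9693 had 1.22, probe 10178 had 0.15 (SE 0.23, 95% interval -0.33 to 0.64) and probe 634 had 0.18 (SE 0.23, 95% interval -0.30 to 0.66). At 1 h, where probe 9693 had 0.68, probe 10178 had -0.18, lower in 3 of 3 pairs as for 12.8% of probes, and probe 634 had 0.17. In both of these probes the CM and NCM levels overlapped at all 7 times. Their changes ranged from -0.26 at T0 to 0.39 at 16 h in probe 10178, and from -0.12 at 15 min to 0.25 at 16 h in probe 634, where 3 of 3 pairs were higher at 16 h as for 13.3% of probes. The mean of the 3 probes had a change of 0.23 at 1 h and 0.52 at 3 h. Over the 21 pair changes, which share arrays, the probes correlated at 0.23 (9693 and 10178), 0.13 (9693 and 634) and -0.22 (10178 and 634). The mean level of probe 9693 stood at the 66.7 percentile of all probes, that of 10178 at 49.5 and that of 634 at 29.9. The transcripts and positions these probes detect were not known here, so the probes could not be assigned to parts of the gene.

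**Figure D2:**
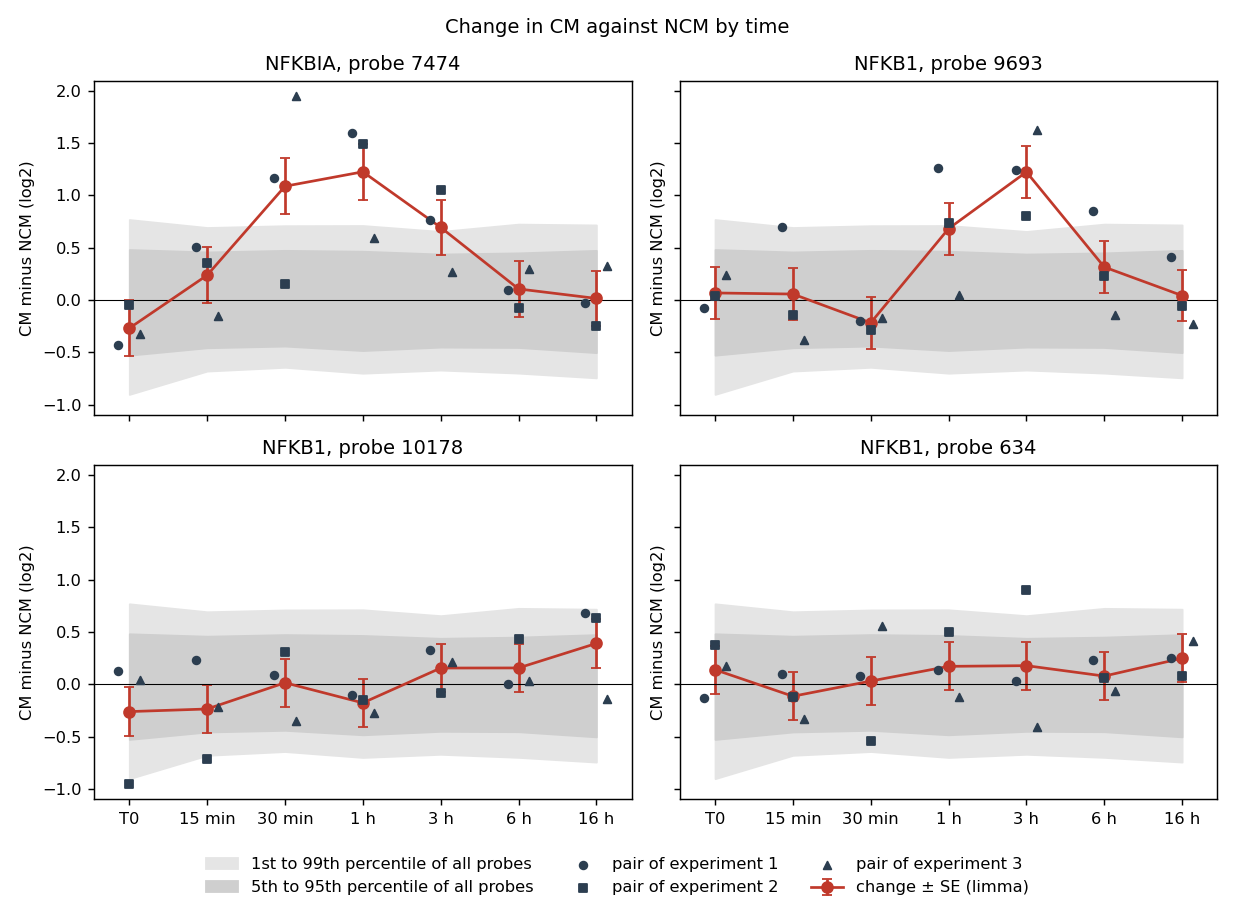
Change in log2 normalized intensity, CM minus NCM (y axis), of each probe over the 7 times (x axis), with points for the 3 pairs and the mean ± SE of limma, over grey bands for the central range of all probes. The NFKBIA mean is largest at 1 h (1.23) and that of NFKB1 probe 9693 at 3 h (1.22), and the other 2 probes stay between -0.26 and 0.39.

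The sizes of the 2 genes' changes were compared within pairs, as the NFKBIA change minus the change of NFKB1 probe 9693. This difference averaged -0.34 at T0, where NFKBIA had the larger change in 0 of 3 pairs, and 0.18 at 15 min (2 of 3). It was 1.31 at 30 min and 0.54 at 1 h, larger for NFKBIA in 3 of 3 pairs at both. At 3 h it was -0.53, at 6 h -0.21 and at 16 h -0.03, each with NFKBIA larger in 1 of 3 pairs. The sign at 3 h depended on the NFKB1 probe: the difference was 0.54 against probe 10178 and 0.52 against probe 634, with NFKBIA larger in 3 of 3 pairs, and 0.18 against the mean of the 3 probes, with NFKBIA larger in 2 of 3. Over the 9 pairs from 15 min to 1 h the difference was 0.68 ± 0.68, and over the 9 pairs from 3 h to 16 h it was -0.26 ± 0.61 (SD). The early minus late value was 0.93, with p = 0.00490 in an exact two-sided permutation test over 48620 regroupings of the 18 pairs. The split into early and late times was made with earlier results of these data known, and pairs of different times were treated as exchangeable. Each side holds 3 times, and the 3 pairs of a time were counted as separate members of it. This p and those below therefore do not measure the spread between times and cannot decide the order of the 2 genes. Without the 30 min pair of experiment 3 it was 0.75 (exact permutation p = 0.0107). With probe 10178 or probe 634 for NFKB1, tried after seeing the data, it was 0.95 (exact permutation p = 0.0161) and 0.72 (exact permutation p = 0.00271). These values contain the early minus late change of NFKBIA itself, 0.58. That of probe 10178 was -0.37 (SE 0.19) and that of probe 634 -0.14 (SE 0.19). They therefore do not by themselves show a later change in these NFKB1 probes.

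The changes were also ordered within each experiment number, which the labels do not tie to the same batch of cells across the times. The NFKBIA change was largest at 1 h in experiments 1 and 2 and at 30 min in experiment 3. The change of NFKB1 probe 9693 was largest at 3 h in experiments 2 and 3. In experiment 1 it was 1.26 at 1 h and 1.25 at 3 h, which differ by less than the SE. The early minus late change tested by itself was 0.58 (SE 0.22, limma adjusted p = 0.608) for NFKBIA and -0.35 (SE 0.20, adjusted p = 0.737) for probe 9693. The changes of the 2 genes correlated at 0.28 over the 21 pairs, which share the arrays.

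**Figure D3:**
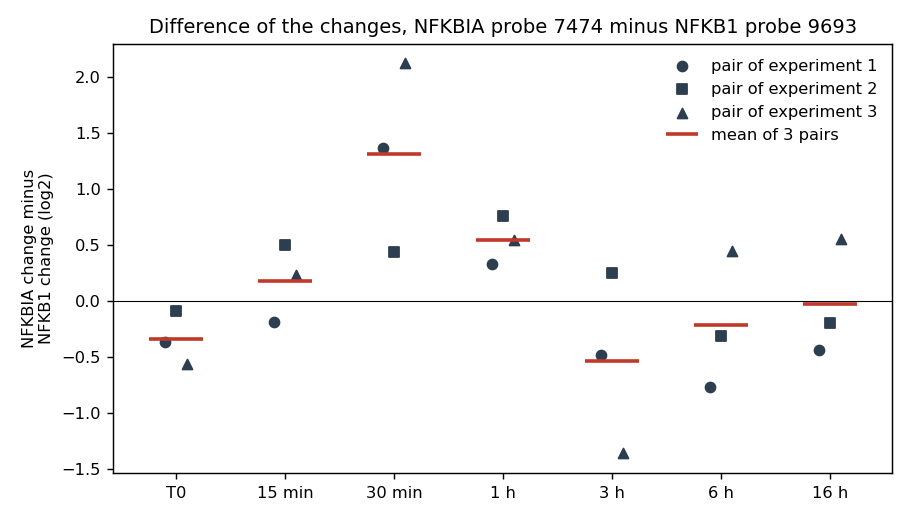
NFKBIA change minus NFKB1 probe 9693 change in log2 normalized intensity (y axis) by time (x axis), with a point per pair and a bar for the mean of 3 pairs. All pairs lie above 0 at 30 min and 1 h, and the mean is -0.53 at 3 h.

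Levels were also followed within each medium. Between the 7 times within CM, limma's F test gave unadjusted p = 0.00433 for NFKBIA and 0.0153 for NFKB1 probe 9693, where 1.18% of probes had one under 0.05. Within NCM these were 0.250 and 0.886, where 1.67% of probes had one under 0.05. In CM, NFKBIA averaged -1.57 ± 0.13 at T0, -0.01 ± 0.56 at 1 h and -1.32 ± 0.46 at 16 h (SD, n = 3 each). In NCM it averaged -1.30 ± 0.13 at T0, -1.23 ± 0.27 at 1 h and -1.34 ± 0.22 at 16 h (SD, n = 3 each). NFKB1 probe 9693 averaged -0.49 ± 0.01 at T0, 0.38 ± 0.31 at 3 h and -0.75 ± 0.25 at 16 h in CM (SD, n = 3 each). Its NCM means were -0.55 ± 0.17, -0.85 ± 0.43 and -0.80 ± 0.40 at the same times (SD, n = 3 each). For the change itself, the F test between the times gave unadjusted p = 0.00437 for NFKBIA, 0.00895 for probe 9693, 0.388 for probe 10178 and 0.944 for probe 634, where 2.22% of probes had one under 0.05. After adjustment limma's F tests gave 1.00 for every one of these.

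Around these genes, 48 of 85 other listed NF-kappaB pathway genes were measured, by the brightest probe of each. Of the 4 other subunits (NFKB2, RELA, RELB and REL), 0 had a probe naming them alone. Of 6 other inhibitors 1 was measured, BCL3, which encodes a nuclear IkappaB protein, with 0.06 at 1 h, 0.17 at 3 h and SE 0.24. Its largest change was 0.63 at 6 h (limma adjusted p = 0.999), higher in 3 of 3 pairs as for 13.3% of probes. None of the 48 genes passed limma's test at 30 min, 1 h or 3 h, with an unadjusted p under 0.05 for 4, 6 and 1 of them, against 3.51%, 4.38% and 3.26% of all probes. At 16 h CFB, a gene of the alternative complement pathway, rose with a change of 1.47 (SE 0.22, n = 3 pairs, limma adjusted p = 0.0177), a call lost with median centring, with deposited values, without the pair block and when any 1 of the 3 replicates was left out. Its other probes had 0.47 and 0.30. CFB had -0.11 at 1 h, when the NFKBIA change was largest, and -0.14 at 3 h, when that of NFKB1 probe 9693 was largest. NFKB1 probes 10178 and 634 had their largest changes at 16 h, of 0.39 and 0.25.

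Upstream of the inhibitor, 10 receptor and ligand genes had a median change of 0.06 at 1 h and 0.03 at 3 h. The 8 adaptor and kinase genes had medians of -0.04 and 0.09 at those times. TRAF6, a ubiquitin ligase that relays interleukin-1 receptor signals, had 0.83 at 30 min (SE 0.30, limma adjusted p = 0.997), with pairs of -0.41, 1.41 and 1.48. The 6 genes of negative feedback had medians of 0.21 at 1 h and -0.08 at 3 h. Among them CYLD, a deubiquitinase, had -0.51 at 30 min (SE 0.19, limma adjusted p = 0.997), lower in 3 of 3 pairs as for 11.7% of probes. Of the 6 genes 1 was higher and 0 lower in 3 of 3 pairs at 1 h, against 15.6% and 12.8% of all probes. At 3 h 2 were higher and 2 lower, against 14.6% and 11.9% of all probes.

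Of 23 measured target genes, 15 were above 0 at 1 h with a median of 0.17, and 15 at 3 h with a median of 0.19. Of all probes 51.2% and 50.8% were above 0 at these times, with medians of 0.01 and 0.00. At each of them 10 of the 23 were higher in CM in 3 of 3 pairs, against 15.6% and 14.6% of all probes. In the other direction 4 were higher in 0 of 3 pairs at 1 h and 0 at 3 h. The 4 include PTX3, whose experiment 3 pair had a change of 0. Of all probes 12.8% and 11.9% were lower in 3 of 3 pairs at these times. At 30 min 10 of 23 were above 0 with a median of -0.02, against 48.6% of all probes. At that time 4 were higher and 1 lower in 3 of 3 pairs, against 8.8% and 11.7% of all probes. At 6 h and 16 h 17 of 23 were above 0, with medians of 0.11 and 0.12, against 49.9% and 50.8% of all probes. In 3 of 3 pairs 9 were higher at 6 h and 5 at 16 h, against 13.3% of all probes each time. At both times 1 was lower, against 11.3% and 12.6%. CXCL2, a neutrophil chemokine gene, had 0.53 at 30 min, 0.97 at 1 h and 0.69 at 3 h (SE 0.22), higher in 3 of 3 pairs each time, with limma adjusted p of 0.997, 0.590 and 1.00. At 1 h CEBPD, which encodes the C/EBP-delta transcription factor, had 1.14 (SE 0.30, limma adjusted p = 0.977), and its other probes had 0.14 and 0.43. MYC, a growth regulator, had 0.92 (SE 0.26, limma adjusted p = 0.977) at 1 h and -0.01 at 3 h. At 3 h CXCL3, a related chemokine gene, had 0.59 (SE 0.29) and BIRC2, an inhibitor of apoptosis, 0.41 (SE 0.21), both with limma adjusted p = 1.00. The other BIRC2 probe had 0.14 at 3 h. Promoter bases were given for 18 of the 23 targets, and 8 of these held the kappaB consensus. The letters GGGAATTTCC shared by NFKBIA and NFKB1 occurred in 2 of them, CXCL2 and CXCL3.

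**Figure D4:**
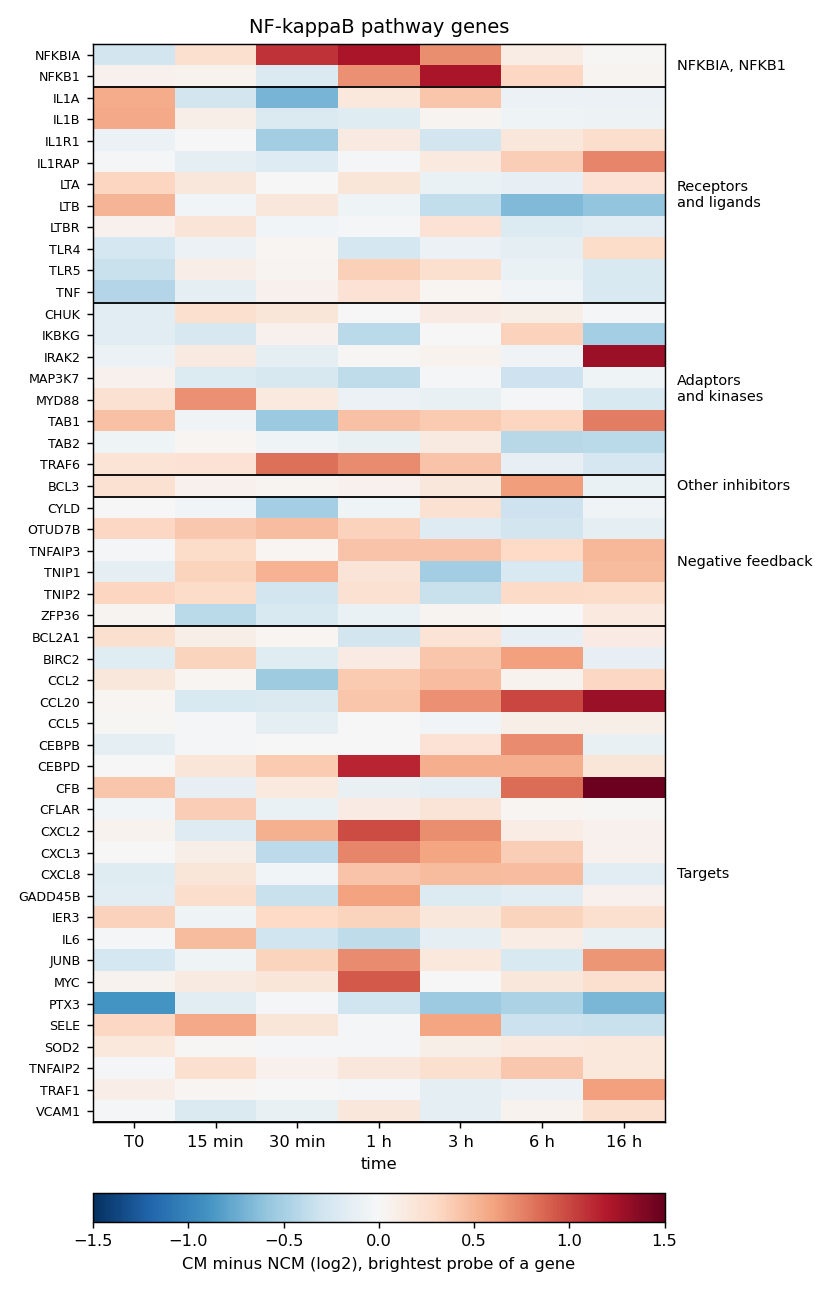
Change in log2 normalized intensity, CM minus NCM (colour, from -1.5 to 1.5), of NFKBIA, NFKB1 (probe 9693) and the 48 measured pathway genes (rows, grouped by role) at the 7 times (columns). NFKBIA is darkest red at 30 min and 1 h and NFKB1 at 3 h, while CFB (1.47), CCL20 (1.29) and IRAK2 (1.28) are at 16 h, of which only CFB passed the test. Probes not drawn had 0.47 and 0.30 (CFB) and 0.22 (IRAK2) at 16 h. For SOD2 the probe not drawn had 1.56 at 16 h and the drawn one 0.16.

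The probes most like each gene were ranked by Pearson r of the 21 pair changes, over 3514 probes that name 1 other gene and lie above the median level. For NFKBIA these were GPC3 (0.65), ATRN (0.61), CCL16 (0.60), XPO1 (0.58) and DAP3 (0.58), where 99% of the candidates were below 0.46. The second probe of GPC3 had 0.16 and that of ATRN 0.06. For NFKB1 probe 9693 these were SAAL1 (0.70), AGMAT (0.66), CST3 (0.64), MARCKSL1 (0.64) and WDR77 (0.62), where 99% of the candidates were below 0.51. The other probes of CST3 had -0.25 and 0.07. No gene was among the 5 for both members. These correlations describe values that share arrays and rest on 3 pairs per time.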

How the data were processed

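The values are linear intensities as the authors deposited them, 1 per probe and array in a value table of 42 arrays. How the arrays were made, scanned, background-corrected and scaled is not given in the sources used. Negative values made up at most 2.12% of an array. Intensities were quantile normalized on the linear scale, set to at least the common 1st percentile (0.0812), and log2 was taken. No member value was at that floor.

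The fit used limma 3.58.1 in R 4.3.3, with a term for each pair and a CM effect for each time, over all 42 arrays (14 residual degrees of freedom, prior SD 0.309 on 6.26 prior degrees of freedom). All tests were two-sided and moderated, adjusted by Benjamini-Hochberg over 13824 probes at a threshold of 0.05. Intervals are at 95% and unadjusted. SE and p pool the spread over the pairs of all times. F tests within a medium used 21 arrays and no block. Plots used matplotlib 3.10.9.

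The pairs come from the labels. Paired arrays deviated together from their group means, with correlations of 0.308 to 0.754, above 0.1 in 21 of 21 pairs.

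Names came from the platform annotation: 7336 probes name 1 gene, 576 several and 5912 none. By Entrez ID 7322 matched a RefSeq table of GRCh38.p14. Promoters of both members were found there.

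The members, lists and early and late times were chosen with earlier results of these data known. Named from the lists were genes past the threshold at a time or, where none passed, the 3 with the smallest unadjusted p at 30 min, 1 h and 3 h, by the brightest probe of a gene. Likeness named the 5 probes with the highest r for each member. The steps were tested on simulated data. Alternatives were no replicate block, deposited values, median centring, a floor at the 10th percentile, leaving out dim probes, each time alone, an intensity trend, neighbour centring by an assumed probe grid, probes of a gene averaged, and each replicate left out. Leaving out the 30 min pair of experiment 3 and using the other NFKB1 probes were added after seeing the data.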

Additional observations from a re-analysis of the deposited data

Results flagged for a closer look

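Some differences of the change between times had an unadjusted p under 0.05 in limma's test of the difference itself, and none passed after adjustment. Against its change at T0, where all 3 CM arrays were below all 3 NCM arrays, the NFKBIA change was larger by 1.36 at 30 min (SE 0.38, unadjusted p = 0.00172, adjusted p = 0.999) and by 1.5 at 1 h (SE 0.38, unadjusted p = 0.000727, adjusted p = 1.00). Without replicate 3 the first of these was 0.898. At 3 h it was larger by 0.964 (SE 0.38, unadjusted p = 0.0184, adjusted p = 1.00). The change of NFKB1 probe 9693 was larger at 1 h than at 30 min by 0.9 (SE 0.35, unadjusted p = 0.0180, adjusted p = 0.998). At 3 h it was larger than at 30 min by 1.44 (SE 0.35, unadjusted p = 0.000513, adjusted p = 0.988). This last difference was not among the planned ones, which were those from T0 and between neighbouring times. It sets the probe's largest mean change against its smallest, so its p does not count as a test. Its share over all probes was not taken. Of all probes 4.62%, 2.98% and 2.79% had an unadjusted p under 0.05 for the 3 differences from T0 in that order, and 3.88% for 1 h minus 30 min.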

How the results depend on the processing

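None of the 52 results on the members passed limma's threshold under any of their alternatives, and 496 of 532 values kept their direction. The NFKBIA change was 1.04 to 1.54 at 1 h and 0.63 to 1.56 at 30 min. That of NFKB1 at 3 h ran from 0.52, with the 3 NFKB1 probes averaged, up to 1.44 for probe 9693. Without the pairs as a replicate block, NFKBIA at 1 h had an unadjusted p of 0.00342 and probe 9693 at 3 h 0.000726. The early minus late value of NFKBIA against NFKB1 kept its direction, with exact permutation p = 0.0433, 0.0390 and 0.00433 without replicates 1, 2 and 3. These p also count the pairs of a time separately and do not measure the spread between times.

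Of the 36 values that turned sign 33 belong to results reported at under 0.2 in size, and the cause was not tested. With deposited values, NFKBIA had -0.15 at 6 h, -0.29 at 16 h and -0.0305 for 1 h minus 30 min. Probe 9693 had -0.0594 at T0 and -0.0633 at 16 h, and probe 634 -0.0646 at 1 h, -0.0559 at 6 h, -0.0336 at 16 h and -0.0599 for the early mean. With median centring, NFKBIA had -0.21 at 16 h, probe 10178 -0.0591 at 30 min, and probe 634 -0.0564 at 30 min and -0.0759 for the early mean. With neighbour centring, NFKBIA had -0.12 at 16 h, probe 9693 -0.25 at T0, probe 10178 -0.14 at 6 h and probe 634 -0.0292 for the early mean. The mean of the NFKB1 probes had -0.0184 at T0 and -0.10 at 15 min. Without the 30 min pair of experiment 3, probe 634 had -0.23 at 30 min and -0.0591 for the early mean.

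With each replicate left out in turn, NFKBIA spanned -0.14 to 0.15 at 16 h and -0.46 to 0.89 for 1 h minus 30 min. Probe 9693 spanned -0.0172 to 0.14 at T0, -0.27 to 0.28 at 15 min, -0.14 to 0.18 at 16 h and -0.0336 to 0.35 for the early mean. Probe 10178 spanned -0.46 to 0.0848 at T0, -0.47 to 0.00484 at 15 min and -0.13 to 0.20 at 30 min. Probe 634 spanned -0.23 to 0.32 at 30 min, -0.19 to 0.47 at 3 h, -0.000653 to 0.15 at 6 h and -0.00916 to 0.0705 for the early mean.

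Counts of probes past the threshold moved as follows, and the cause was not tested. At 16 h (1 probe) there were 0 without the block, with deposited values, with median centring and with each time alone, 2 with the higher floor or without the dimmest 25%, 3 with the intensity trend, 5 with neighbour centring and 7 without the dimmest 50%. At 3 h (0 probes) there was 1 with the higher floor, the intensity trend, averaged probes and without the dimmest 25% or 50%. For the late mean (6 probes) there were 0 without the block, 1 with deposited values or median centring, 2 with averaged probes and 10 with the intensity trend. Early minus late (0 probes) gave 1 without the dimmest 50%, a filter that removes every member probe but 9693. Time within CM (1 probe) gave 2 with median centring, and time within NCM (2 probes) gave 1 with deposited values or median centring. Without a replicate the counts were 0 to 1 at 1 h, 0 to 0 at 16 h and for the late mean, 0 to 1 within CM and 0 to 0 within NCM.

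With 3 pairs per time, 1 NFKBIA probe and disagreeing NFKB1 probes, small changes could not be resolved.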

Other observations

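The letters GGGAATTTCC that the NFKBIA and NFKB1 promoters share occurred in the promoters of 48 genes, and 11 of these other than NFKBIA and NFKB1 were measured. At T0 9 of the 11 had a change above 0 with a median of 0.10, against 51.9% of all probes. At 15 min it was 8 of the 11 with a median of 0.09, against 50.4%. It was 7 of the 11 at 30 min, 6 h and 16 h, against 48.6%, 49.9% and 50.8%. At 1 h 7 of the 11 had a change above 0 with a median of 0.03, against 51.2% of all probes. In 3 of 3 pairs 3 were higher and 1 lower in CM, against 15.6% and 12.8% of all probes. At 3 h 7 of the 11 were above 0 with a median of 0.15, against 50.8% of all probes. In 3 of 3 pairs 3 were higher and 1 lower, against 14.6% and 11.9% of all probes. By limma 0 of them passed at any time, and SEC24A, at T0 and at 16 h, CXCL2 at 30 min, 1 h and 3 h and CXCL3 at 1 h had an unadjusted p under 0.05. CXCL2 had the highest change of the 11 at 1 h (0.97) and at 3 h (0.69). CXCL6 and CXCL5, chemokine genes related to CXCL2, had -0.14 (SE 0.52) and 0.03 (SE 0.28) at 1 h. OPTN, which encodes the ubiquitin-binding protein optineurin, had 0.03 at 1 h and 0.15 at 3 h (SE 0.28). These genes were chosen by their promoter letters after the member values were known, and binding was not measured.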
